A study of Mus musculus with 8 samples.

Results

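The cluster of miR-183, miR-96 and miR-182 was examined in the lumbar ventral spinal cord through its 3 members mmu-miR-182, mmu-miR-183 and mmu-miR-96, which were taken by name from the 375 miRNA assays of the TaqMan Array Mouse MicroRNA Card A. All 3 members were on the card. The samples came from 4 wild type mice of the FVB strain (WT) and 4 MLC/SOD1[G93A] mice on the same FVB background, and every mouse was 4 months old. MLC/SOD1[G93A] mice carry the mutant SOD1 gene under a Myosin Light Chain promoter that is active in skeletal muscle, so the transgene is not driven in the cord itself. Each mouse had 1 card with 1 well per miRNA. The readout of a well is its threshold cycle (Ct), the PCR cycle in which the fluorescence passes a fixed level. An earlier Ct means more of the miRNA, roughly a doubling for each cycle. WT cards are called WT 1 to WT 4 after the sample labels. MLC/SOD1[G93A] cards are called 5a to 8a after their columns, because the labels use other numbers, and are known by group only.

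The 3 miRNAs are cut from a shared primary transcript. They are best known from sensory tissues, where they are abundant in photoreceptors of the retina, hair cells of the inner ear and sensory neurons of the dorsal root ganglia, and mutations in the seed of miR-96 cause progressive hearing loss. A miRNA finds its target mRNAs mainly through the seed, bases 2 to 8 from its 5′ end. The question put to the cards was whether these miRNAs were detected in a ventral dissection of the cord, whether they varied together, and whether they differed between the groups.

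The mature sequences are shown because the members resemble each other in the very bases that select targets. They are the RefSeq 5p arms (assembly GRCm38.p6), the arm that each unsuffixed name stood for, since the card names no arm. All 3 members matched. Each is written 5′ to 3′ with the seed in capitals.
mmu-miR-182-5p: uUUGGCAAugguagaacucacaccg
mmu-miR-183-5p: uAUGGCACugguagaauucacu
mmu-miR-96-5p: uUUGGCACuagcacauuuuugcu
Bases 3 to 7 were identical in the 3 members. A run of the same letters at that place was found in 5 of the 1738 mature mouse miRNAs of the table, or 0.288%. Over the seed, miR-96 shared 6 of 7 bases with miR-182 and 6 of 7 with miR-183, whereas miR-182 and miR-183 shared 5. Over the whole length, seed included, the order was different. Without gaps, miR-182 and miR-183 had the same base at 18 of 22 positions, miR-96 and miR-183 at 13 of 22, and miR-96 and miR-182 at 12 of 23. The full seed of miR-96 occurred in 1 other mature miRNA of the table, miR-1271-5p, and those of miR-182 and miR-183 in no other.

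The mature miRNAs lie on the minus strand at chr6:30165962-30165986 (miR-182), chr6:30169506-30169528 (miR-96) and chr6:30169711-30169732 (miR-183). Their 3 hairpins span 3820 bases inside the annotated long non-coding RNA gene Mirc35hg. The hairpins of miR-96 and miR-183 were 116 bases apart, and that of miR-182 was 3453 bases from that of miR-96.

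The members did not behave alike on the cards. miR-182 and miR-183 were detected in every mouse and varied together from mouse to mouse, whereas miR-96 was near the limit of detection and was missed in some mice of each group. No member differed between the groups after adjustment over all miRNAs. With the global mean of the card as reference, but not with U6, miR-182 and miR-183 were higher in MLC/SOD1[G93A] mice at an unadjusted p under 0.05, as were 3.52% of all miRNAs tested. With 1 card left out, this held in 2 of 8 fits for miR-183 and in 3 of 8 for miR-182.

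As in the methods of the study, a Ct over 35 was counted as not detected. Between 239 and 256 of the 375 miRNAs were detected per card. The cards of WT 1, 7a and 8a stood apart. WT 1 had the latest mean Ct over the 190 miRNAs detected on every card (29.00, others 28.02 to 28.87). Card 7a had the earliest mean Ct of the U6 small nuclear RNA (16.88, others 17.45 to 18.50) and the only signal of a plant miRNA put on the card as a negative control. U6 has several wells on each card. Their Ct ranged over 2.14 cycles within card 7a and 1.97 within 8a, and over 0.39 to 1.05 within the others. The U6 mean of 7a and 8a thus rested on wells that differed more. Card 8a had a U87 Ct of 18.40, while the others lay between 27.87 and 29.54. The main changes below are therefore also given with WT 1, 7a or 8a left out.

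miR-182 gave the earliest Ct of the cluster. Its Ct was 28.82, 27.47, 27.96 and 26.90 in WT 1 to 4, and 26.97, 27.58, 27.65 and 26.97 in cards 5a to 8a. All 8 values were far from the limit of 35, and WT 1 was the latest. The group means were 27.79 ± 0.81 (SD, n = 4) in WT and 27.29 ± 0.37 (SD, n = 4) in MLC/SOD1[G93A] mice, with overlapping values.

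miR-183 was detected in all 8 mice as well, several cycles later. Its Ct was 34.13, 31.88, 32.01 and 31.26 in WT 1 to 4, and 31.72, 31.97, 31.88 and 30.88 in cards 5a to 8a. WT 1 was again the latest, more than 2 cycles after any other mouse. The means were 32.32 ± 1.25 (SD, n = 4) in WT and 31.61 ± 0.50 (SD, n = 4) in MLC/SOD1[G93A] mice.

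miR-96 was detected in 6 of the 8 mice, 3 in each group. WT 1 gave no Ct, and WT 2 to 4 gave 33.18, 33.36 and 32.28. Cards 5a, 7a and 8a gave 32.42, 34.70 and 33.90, and card 6a gave 35.99, which is over the limit. On card 7a the plant negative control came at 29.85, earlier than miR-96 and miR-183 (31.88) and later than miR-182 (27.65). What this means for detection on that card was not tested. With all Ct values kept, miR-96 had a value in 3 WT and 4 MLC/SOD1[G93A] mice. The mouse without a miR-96 signal, WT 1, was thus the mouse with the latest Ct of both other members. Detection of miR-96 did not differ between the groups (two-sided Fisher's exact test, p = 1 with and without the limit of 35). With 4 mice per group, this test has little room to show a difference. miR-182 and miR-183 were detected in every mouse, so no difference was possible for them. At a Ct limit of 32, miR-183 was detected in 2 WT and 4 MLC/SOD1[G93A] mice (two-sided Fisher's exact test, p = 0.429).

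**Figure D1:**
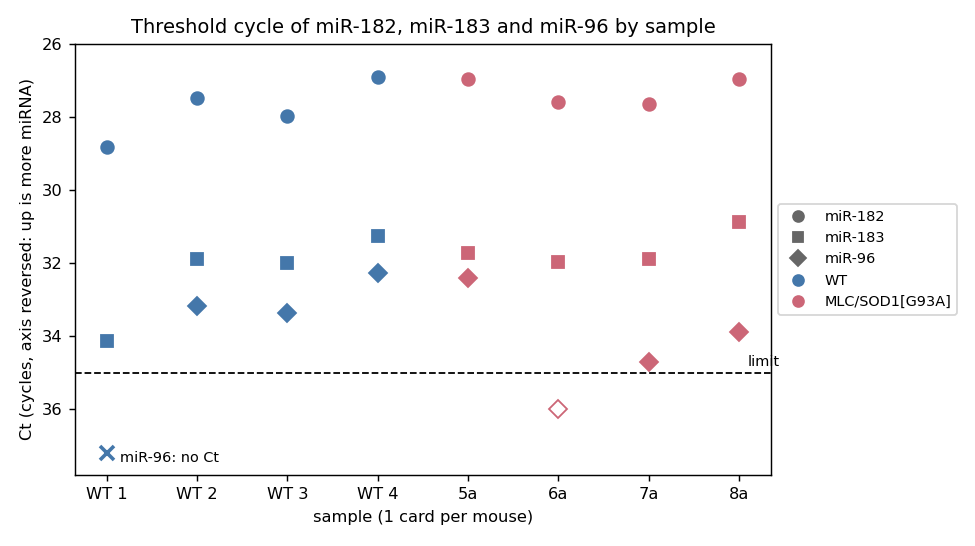
Ct of miR-182 (circles), miR-183 (squares) and miR-96 (diamonds) on each of the 8 cards, WT in blue and MLC/SOD1[G93A] in red, on a reversed axis in cycles with the limit of 35 as a dashed line. miR-182 lies between 26.90 and 28.82 and miR-183 between 30.88 and 34.13, while miR-96 gave no Ct in WT 1 (cross) and 35.99 in card 6a (open diamond).

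Detection in all 8 mice was common on the card. It was reached by 2 of the 3 members and by 190 of all 375 miRNAs, or 50.7%. Ordered by mean Ct from early to late, miR-182 was in place 66 and miR-183 in place 176 of these 190. Assays differ in their efficiency, so the order of Ct values is not an order of abundance, and the same holds for the order of miR-182, miR-183 and miR-96 among themselves.

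The gap in Ct between members of the cluster within a mouse is free of any reference, because all members share the RNA and the card. miR-183 followed miR-182 by 5.31, 4.41, 4.05 and 4.36 cycles in WT 1 to 4 and by 4.75, 4.39, 4.23 and 3.91 cycles in cards 5a to 8a. The groups overlapped, and the mean gap was 4.53 ± 0.54 (SD, n = 4) in WT and 4.32 ± 0.35 (SD, n = 4) in MLC/SOD1[G93A] mice (two-sided exact permutation test, p = 0.571). The difference between the groups was -0.21 cycles, and 0.047 without WT 1.

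The gap from miR-182 to miR-96 spread more widely. It was 5.71, 5.40 and 5.38 cycles in WT 2 to 4, 5.45 in card 5a, 7.05 in 7a and 6.93 in 8a, and 8.41 in 6a when the Ct over 35 was kept. Card 5a lay within the WT values and the other 3 MLC/SOD1[G93A] cards above all of them. The means were 5.50 ± 0.19 (SD, n = 3) and 6.96 ± 1.21 (SD, n = 4) with all Ct values, with p = 0.0857 in the two-sided exact permutation test (smallest possible 0.0286). With the limit of 35 the second mean was 6.48 ± 0.89 (SD, n = 3; exact permutation test, p = 0.2, smallest possible 0.1). The gap from miR-183 to miR-96 was 1.22 ± 0.18 (SD, n = 3) in WT and 2.64 ± 1.40 (SD, n = 4) in MLC/SOD1[G93A] mice with all Ct values (two-sided exact permutation test, p = 0.143). With the limit of 35 the difference was 0.96, and it lay between 0.54 (without 8a) and 1.70 (without 5a) when 1 card was left out.

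For the comparison of the groups, the Ct of each miRNA was set against the 4 U6 wells of the same card (their mean Ct), as in the methods of the study, and the sign was turned so that a higher log2 level stands for more miRNA. The 227 miRNAs detected in at least 3 mice of each group were tested together with limma, and all 3 members were among them. With bulk tissue, fewer cells of a type and less RNA per cell cannot be told apart.

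Relative to U6, the log2 level of miR-182 was -11.37, -9.27, -9.52 and -8.76 in WT 1 to 4 and -8.47, -9.08, -10.77 and -9.01 in cards 5a to 8a. WT 1 and card 7a were the lowest of their groups, and 7a was the card whose U6 wells differed most. The log2 change, MLC/SOD1[G93A] minus WT, was 0.40 with a standard error of 0.68 (adjusted p = 0.975 from limma). For miR-183 the levels were -16.68, -13.68, -13.57 and -13.12 in WT 1 to 4 and -13.22, -13.47, -15.00 and -12.92 in cards 5a to 8a. The same mice were lowest, and limma gave a change of 0.61 with a standard error of 0.75 (adjusted p = 0.975). For miR-96 they were -14.98, -14.92 and -14.14 in WT 2 to 4 and -13.92, -17.82 and -15.94 in cards 5a, 7a and 8a, with a change of -1.22 (standard error 0.86, adjusted p = 0.975 from limma). Each of these differences was within the spread between mice, and the groups overlapped for each member.

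Of the 3 members, 0 passed an adjusted p of 0.05 and 0 an unadjusted p of 0.05 in limma. Of all 227 miRNAs, 0 passed the adjusted threshold (0.0%), and at an unadjusted p under 0.05, MLC/SOD1[G93A] mice had 5 at lower levels (2.2%) and 1 at a higher level (0.441%). The median change of all 227 was -0.31, and 22.5% had a change above 0. The changes of miR-182 and miR-183 were above 0, and they stood 0.70 and 0.92 above the median change. That of miR-96 stood -0.91 from it.

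The direction of miR-182 and miR-183 relative to U6 rested on WT 1. Without this mouse their changes were -0.15 (standard error 0.61) and -0.20 (standard error 0.60), and the median change of all 227 miRNAs moved to -0.71. Then 4 of the 227 passed the adjusted threshold (1.76%), with no member among them. The change of miR-96 moved most, in opposite directions, with cards 5a and 7a. It was further from 0 without 5a, at -2.20 over 3 WT and 2 MLC/SOD1[G93A] mice (unadjusted p = 0.0206, adjusted p = 0.940 from limma). Without 7a it was -0.25 (adjusted p = 0.995 from limma). Without 8a the changes relative to U6 were 0.29 for miR-182, 0.36 for miR-183 and -1.19 for miR-96.

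**Figure D2:**
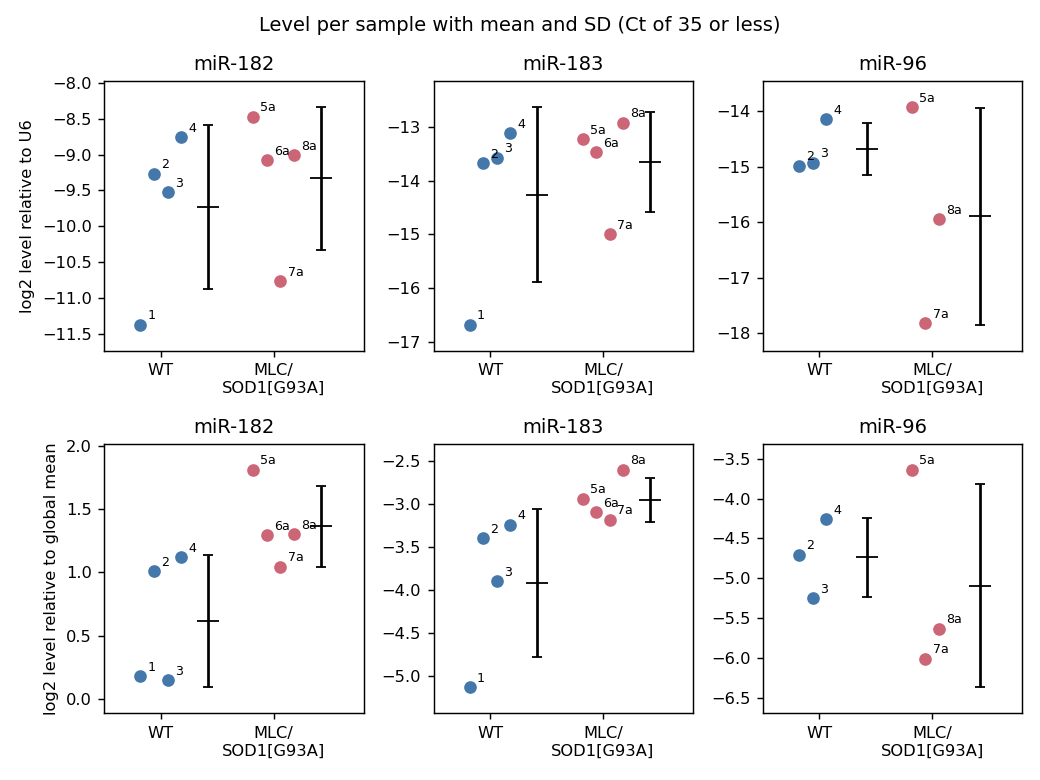
Log2 level of each member in each mouse with U6 (upper panels) or the global mean of the card (lower panels) as reference, for values with a Ct of 35 or less, labelled by card and with the mean and SD of each group in black. Relative to U6, WT 1 and card 7a are the lowest for miR-182 and miR-183. Relative to the global mean, all 4 MLC/SOD1[G93A] mice lie above all WT mice for miR-183.

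The other reference that the study names was the global mean, here taken over the 190 miRNAs that every card detected. It uses no U6 well. The median change of all 227 miRNAs was 0.04 on this scale, and 53.7% of them had a change above 0.

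Relative to the global mean, the log2 level of miR-183 was -5.13, -3.40, -3.90 and -3.24 in WT 1 to 4 and -2.94, -3.10, -3.19 and -2.61 in cards 5a to 8a. The groups did not overlap, although the highest WT mouse and the lowest MLC/SOD1[G93A] mouse were close. The mean was -3.92 ± 0.85 (SD, n = 4) in WT and -2.96 ± 0.25 (SD, n = 4) in MLC/SOD1[G93A] mice, a change of 0.96 or 1.94-fold (standard error 0.40, unadjusted p = 0.0389, adjusted p = 0.515 from limma). The two-sided exact permutation test gave p = 0.0286, the smallest that 4 against 4 allow.

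For miR-182 the levels were 0.18, 1.01, 0.15 and 1.12 in WT 1 to 4 and 1.81, 1.29, 1.04 and 1.30 in cards 5a to 8a. Only card 7a fell within the WT range. The mean was 0.62 ± 0.52 (SD, n = 4) in WT and 1.36 ± 0.32 (SD, n = 4) in MLC/SOD1[G93A] mice, a change of 0.75 or 1.68-fold (standard error 0.31, unadjusted p = 0.0362, adjusted p = 0.515 from limma; two-sided exact permutation test, p = 0.0571).

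The levels of miR-96 were -4.70, -5.25 and -4.26 in WT 2 to 4 and -3.64, -6.01 and -5.63 in cards 5a, 7a and 8a. Card 5a was the highest of all and the other cards were below every WT mouse. Its change was -0.35 with a standard error of 0.62 (adjusted p = 0.964 from limma; two-sided exact permutation test, p = 0.7, smallest possible 0.1).

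With this reference, 2 of the 3 members were thus higher at an unadjusted p under 0.05, where 8 of all 227 miRNAs were (3.52%) and 13 were lower (5.73%). After adjustment 0 of the 3 members and 0 of the 227 passed (0.0%). Groups without overlap and higher in MLC/SOD1[G93A] mice were found for 1 member and for 5 of the 227 miRNAs (2.2%), against 1 of the 227 relative to U6 (0.441%), where no member was among them. Counted from the highest change down, miR-183 was in place 7, miR-182 in place 13 and miR-96 in place 193 of the 227.

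Without WT 1 the change relative to the global mean was 0.56 for miR-183 (standard error 0.25, unadjusted p = 0.0538 from limma) and 0.60 for miR-182 (standard error 0.30, unadjusted p = 0.0816 from limma), and 0 of the 227 had an adjusted p under 0.05 (0.0%), 26 being higher at an unadjusted p under 0.05 (11.5%). The groups still did not overlap for miR-183, as for 24 of the 227 miRNAs (10.6%). Without 7a the changes were 1.04 and 0.85, and without 8a they were 0.84 and 0.77. With 1 card fewer, the unadjusted p of miR-183 stayed under 0.05 only without WT 2 or WT 4 (0.0501 to 0.0890 in the other 6 fits), and that of miR-182 only without WT 2, WT 4 or 7a (0.0560 to 0.105 in the other 5). For miR-96 the change was -1.08 without 5a (unadjusted p = 0.0342, adjusted p = 0.604 from limma), 0.10 without 7a and -0.09 without 8a.

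**Figure D3:**
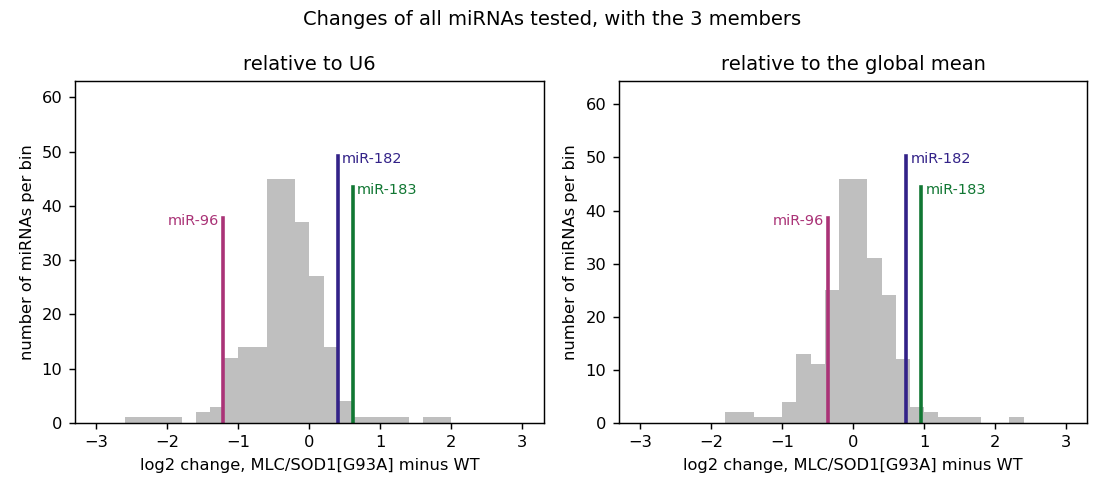
Histograms of the log2 change of the 227 miRNAs tested, with U6 (left) or the global mean (right) as reference, and with the 3 members as vertical lines whose heights carry no value. miR-182 and miR-183 lie on the right side of both distributions and miR-96 on the left side.

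A reference shifts every miRNA of a card alike. The order of miR-182 and miR-183, which were detected on every card, was therefore fixed under the other references. miR-96 again had the lowest change of the cluster. Relative to the Y1 RNA, the changes were 1.55 for miR-183 and 1.34 for miR-182, with no overlap between the groups for either (unadjusted p = 0.00166 and 0.00325, adjusted p = 0.104 for both in limma). Y1 raised the whole card as well. The median change of all 227 miRNAs was 0.64, 29.5% were higher at an unadjusted p under 0.05, 14.5% were higher without overlap, and 0.0% passed after adjustment. Relative to snoRNA135 the changes were 1.10 and 0.89, relative to snoRNA202 they were 0.58 and 0.36, and without any reference 0.71 and 0.50. miR-96 was at 0.27 relative to Y1 and below 0 relative to snoRNA135 (-0.22), snoRNA202 (-0.72) and without a reference (-0.73).

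**Figure D4:**
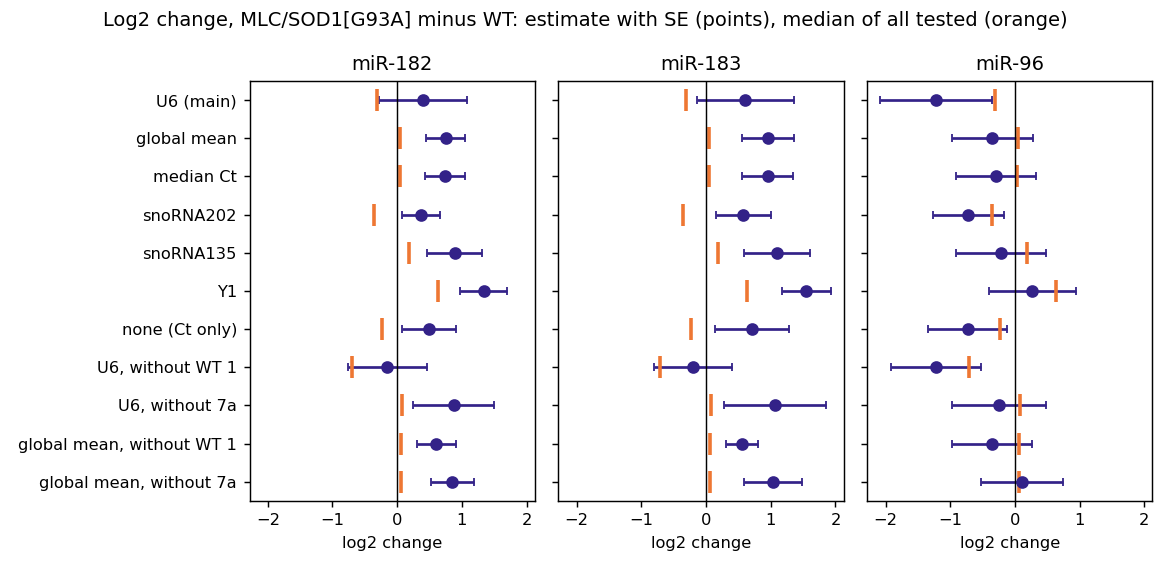
Log2 change of each member, MLC/SOD1[G93A] minus WT, with its standard error from limma (points and bars) under different references and without single cards, beside the median change of all 227 miRNAs in the same fit (orange ticks). The points of miR-182 and miR-183 lie above the median in each setting drawn, and below 0 only relative to U6 without WT 1. With the same cards, a change of reference moves these points and the median nearly alike.

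miR-182 and miR-183 varied together over the 8 mice. Relative to U6, Pearson's r was 0.951 and Spearman's rho was 0.881 (two-sided exact permutation tests, p = 0.00174 and 0.00724, adjusted over the 3 pairs of members 0.00521 and 0.0217). Levels relative to U6 share the U6 value of their card, so the relation was also computed relative to the global mean, where r was 0.833 and rho 0.929 (exact permutation p = 0.00677 and 0.00223, adjusted 0.0203 and 0.00670). For the Ct without any reference, r was 0.926 and rho 0.916 (exact permutation p = 0.000694 and 0.00278). Such Ct values still hold the differences between whole cards, whose mean Ct ran from 28.02 (WT 4) to 29.00 (WT 1). How strongly other pairs of miRNAs correlate on this scale was not tested. Within the groups, after the group means were taken out, r was 0.950 with U6 and 0.690 with the global mean as reference.

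The relation was also computed with fewer mice. Without the 2 mice farthest from the median of miR-182, r was 0.621 relative to U6 (without WT 1 and 7a, n = 6, exact permutation p = 0.193) and 0.545 relative to the global mean (without WT 3 and WT 1, n = 6, exact permutation p = 0.267). On these scales p was thus over 0.05 without those mice. Leaving out the extremes of miR-182 narrows its range and leaves fewer mice, so this cannot show that the relation rested on them. The 2 farthest mice were found anew on each scale. For the Ct without any reference they were WT 1 and WT 4, and r without them was 0.739 (n = 6, exact permutation p = 0.0278). The pairs left out thus differed, so the scales cannot be compared on this point.

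For miR-96 the relation to the others depended on the scale. With miR-182, r was 0.900 and rho 0.771 relative to U6 over the 6 mice with both values (exact permutation p = 0.0264 and 0.103, adjusted 0.0396 and 0.154), but r was 0.243 without cards 7a and 5a. Relative to the global mean r was 0.474 and rho 0.371 (exact permutation p = 0.339 and 0.497). Within the groups, r of these members was 0.945 with U6 and 0.816 with the global mean, over the same 6 mice. With miR-183, r was 0.776 and rho 0.371 with U6 as reference (exact permutation p = 0.101 and 0.497), but 0.029 and -0.086 with the global mean (exact permutation p = 0.967 and 0.919). Within the groups it was 0.791 and 0.306.

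**Figure D5:**
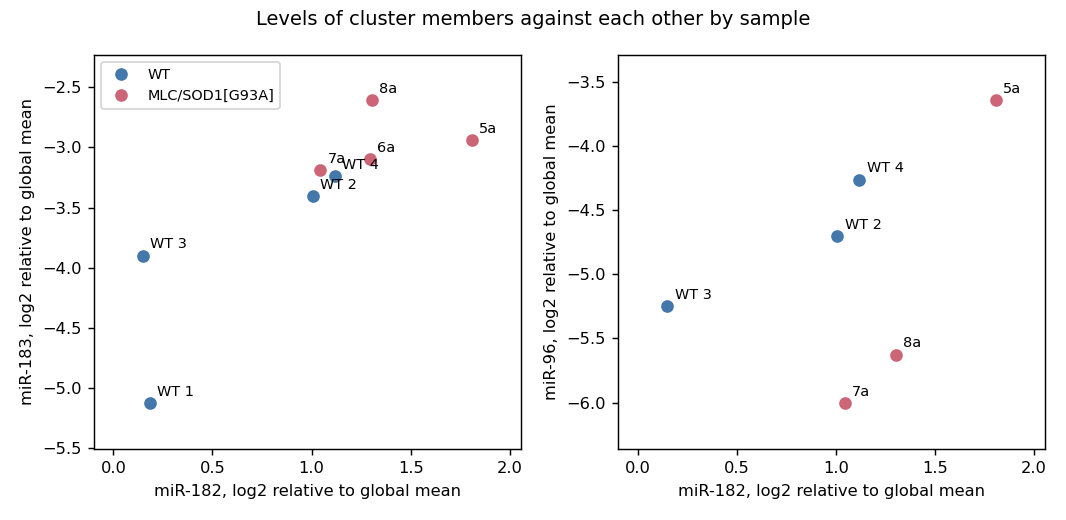
Log2 level relative to the global mean of miR-183 (left, 8 mice) and of miR-96 (right, the 6 mice with a Ct of 35 or less) against that of miR-182, each point being 1 mouse. In the left panel WT 1 and WT 3 are lowest for both miRNAs (r = 0.833), and in the right panel cards 7a and 8a lie below the WT mice (r = 0.474).

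Among the 189 other miRNAs detected on every card, the one whose level relative to the global mean was most like that of miR-182 over the 8 mice was miR-183 (r = 0.833), followed by miR-136 (r = 0.775) and miR-487b (r = 0.763). The median r of the 189 was 0.07. For miR-183 the most alike were miR-190 (r = 0.899), miR-103 (r = 0.841) and miR-182. For miR-96, over 6 mice and 197 miRNAs, they were miR-25 (r = 0.914), miR-495 (r = 0.905) and miR-708 (r = 0.881), while miR-182 was in place 33 and miR-183 in place 100. All these points share the global mean of their card, and they are given as a description.

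Markers of other cells were read from the same cards, to set beside the cluster. No sample of dorsal root ganglion or dorsal cord was analysed here, so sensory tissue in the dissection and transcription of the cluster within the ventral cord cannot be told apart. Of the miRNAs of neurons in general, 7 of 7 on the card were detected in all 8 mice, with miR-9 earliest at a mean Ct of 22.56. Their mean log2 level relative to the global mean was 2.23 to 2.32 in WT and 1.67 to 2.36 in MLC/SOD1[G93A] mice, and the groups overlapped. Of the oligodendrocyte miRNAs, 3 of 3 were detected in all mice, at 1.70 to 2.44 in WT and 1.45 to 1.89 in MLC/SOD1[G93A] mice. They did not change alike relative to the global mean. The change of miR-138, earliest at a mean Ct of 21.58, was 0.44 (standard error 0.35), that of miR-219 -0.11 (standard error 0.25) and that of miR-338-3p -0.80 (standard error 0.35).

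The miRNAs of epithelium, where the cluster is also expressed, were detected unevenly. Only miR-200c and miR-203 of 7 were detected in all 8 mice, miR-429 in 7, miR-200b in 5, miR-200a in 3, miR-141 in 2 and miR-205 in 1. The mean Ct of miR-203 was 29.6 and that of miR-200c was 32.2. The mean level of miR-200c and miR-203 was -3.21 to -2.06 in WT and -2.57 to -2.12 in MLC/SOD1[G93A] mice, and WT 1, the lowest for miR-183, was the highest here. The change of miR-203 relative to the global mean was -0.06 (standard error 0.30) and that of miR-200c was 0.26 (standard error 0.58).

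Of the connective tissue and vessel wall miRNAs, 3 of 4 were detected in all mice, at -0.54 to 0.88 in WT and -0.38 to 0.76 in MLC/SOD1[G93A] mice. There miR-145, earliest at a mean Ct of 26.24, changed by -0.06 relative to the global mean (standard error 0.47) and miR-143 by -0.21 (standard error 0.33). Of the choroid plexus miRNAs, miR-204 was detected in all mice, at 4.17 to 5.07 and 3.91 to 4.93, and miR-211 in 1. The blood miRNAs, 3 of 3 on the card detected in all mice, lay at 0.58 to 1.86 in WT and -0.13 to 0.78 in MLC/SOD1[G93A] mice, and 3 of the 4 WT mice were above every MLC/SOD1[G93A] mouse. Among them miR-486, the earliest at a mean Ct of 26.07, changed by 0.09 relative to the global mean (standard error 0.37) and miR-451 by -1.12 (standard error 0.62). The change of miR-223, a miRNA of myeloid cells, was -1.45 relative to the global mean (standard error 0.42, unadjusted p = 0.00632, adjusted p = 0.427 from limma). The part of these cells in the levels of the cluster was not tested.

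With the global mean as reference and an unadjusted p under 0.05, 0 of 3 tested epithelial miRNAs, 1 of 7 neuronal (lower, miR-129-5p), 1 of 3 oligodendrocyte (lower, miR-338-3p), 0 of 3 connective tissue, 1 of 3 blood (lower, miR-223) and 0 of 1 choroid plexus miRNAs passed. Of all 227 miRNAs, 3.52% were higher and 5.73% lower at this threshold. Lists this short cannot be told apart from these shares. The median changes of the lists were 0.17, -0.12, -0.11, -0.21, -1.12 and 0.00 in the same order, beside 0.04 for all 227 miRNAs. For the 3 members of the cluster the median was 0.75, the change of miR-182 itself. miR-183 was at 0.96 and miR-96 went the other way, at -0.35.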

How the data were processed

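Total RNA of each ventral cord was reverse transcribed with Megaplex primers by the authors and run on card A, with Ct values from the SDS RQ Manager software. The authors deposited these Ct values, which reach 38.0, so the limit of 35 in the methods was not applied to them. They also deposited a log2 table, the Ct minus the mean of the 4 U6 wells. All 2063 miRNA values matched this within 0.01, and it served as an alternative. Another table, of group ratios, was not used.

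Here, a Ct over 35 or without a value was missing, miRNAs with at most 1 missing value per group were kept, and level was the U6 mean minus the Ct. The comparison between groups used limma 3.58.1 under R 4.3.3 (empirical Bayes, no covariates, Benjamini-Hochberg over 227 miRNAs, threshold 0.05). For single values, exact permutation tests were two-sided (scipy 1.17.1). The limma fit was tested on simulated data, which held no shifts between whole cards. Nothing in the labels pairs mice of the 2 groups, and p-values measure the spread between 4 samples per group. Few cards per group set the precision.

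The members and marker lists were chosen with earlier results of these data known. Besides the members, the text names the 3 miRNAs most like each member. From each marker list it names the one with the lowest mean Ct and the one with the smallest p relative to the global mean. Others are named to state detection, and miR-451 and miR-219 to give all 3 blood and all 3 oligodendrocyte miRNAs. miR-212 and miR-144 of the lists were not analysed here. Alternatives were other references (global mean, median, snoRNA202, snoRNA135, Y1, none), the deposited log2 table, other Ct limits (32, none), missing values set to 35, an ordinary linear model, an exact Mann-Whitney test and leaving out each card. When a card was left out, the same 227 miRNAs were tested.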

Additional observations from a re-analysis of the deposited data

Results flagged for a closer look

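Of 23 groups of 4 values of the cluster and its references, 1 held a mouse whose distance to the next, divided by the range of the group, was above Dixon's critical value for 4 values, which chance passes in about 5% of groups. This was miR-183 relative to U6 in WT 1, at -16.68, while the other WT mice lay between -13.68 and -13.12. Relative to the global mean WT 1 was also the lowest, at -5.13, but its distance was within that value. Apart from the assays used for the comparisons, the plant control ath-miR159a had a Ct of 29.85 on card 7a and no Ct on the other 7 cards.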

How the results depend on the processing

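No paired analysis was possible because the MLC/SOD1[G93A] columns do not carry the replicate numbers of the labels. The fits that joined the global mean with a left-out card or with no Ct limit, and the differences in Ct gap, were chosen after seeing the data. The change of miR-182 kept its direction in 28 of 29 alternatives, that of miR-183 in 27 of 28 and that of miR-96 in 26 of 28, and the lowest adjusted p among them were 0.104, 0.104 and 0.357. These counts include fits that could not move the estimate, so they do not measure how firm a direction is. For miR-182, other Ct limits, missing values set to 35, the linear model and the Mann-Whitney test all left the change at 0.40. With U6 and 1 card left out, the change ranged from -0.15 (without WT 1) to 0.88 (without 7a) for miR-182, from -0.20 to 1.06 for miR-183 without the same cards, and from -2.20 (without 5a) to -0.25 (without 7a) for miR-96, and the number of the 227 miRNAs past the adjusted threshold from 0 to 4 (without WT 1). The change of miR-96 was 0.27 with Y1, and 0.10 with the global mean and without 7a. At a Ct limit of 32, miR-96 was detected in 0 samples and could not be tested. The Ct gap from miR-182 to miR-183 differed by -0.37 (without WT 3) to 0.047 (without WT 1). The correlation of miR-182 with miR-183 ranged from 0.827 to 0.967 in 20 alternatives, with an unadjusted exact permutation p of 0.000694 to 0.0433. Adjusted over 3 pairs, p was over 0.05 with the global mean without WT 1 (r = 0.838, exact permutation test, adjusted p = 0.130) and without 6a (r = 0.827, adjusted p = 0.0524). Where miR-96 had no correlation, this was the only pair and p was not adjusted, so these fits cannot be set against the others by their adjusted p. That of miR-182 with miR-96 was 0.474 with the global mean (also without WT 1 or 6a, which lack a miR-96 value), 0.505 with no reference, 0.694 with no Ct limit and 0.205 with the global mean and no limit, where that of miR-183 with miR-96 was -0.059. The cause of these shifts was not tested. Correlations with miR-96 had no value where leaving out a card left under 6 samples. Few cards and Ct values near 35 limit what can be seen of miR-96.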
